A study of Mus musculus with 19 samples.

Results

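The Slc25 genes encode the mitochondrial carriers, and all genes of the table whose symbol is Slc25a followed by digits were taken, which gave 47 of 56066 genes on 19 chromosomes. Of these, 39 had at least 1 TPM (an abundance per transcript length and library total) in at least 3 libraries and were tested, among 14812 such genes in all. The other 8 (Slc25a2, Slc25a18, Slc25a21, Slc25a31, Slc25a41, Slc25a43, Slc25a48 and Slc25a54) averaged 0.4511 TPM or less and were not tested. RNA was sequenced from whole mouse hearts carrying a PDK1 conditional knockout (cKO) and from wild-type (WT) hearts. The groups were 3 libraries from P7 cKO hearts, 3 from P21 cKO hearts, 3 from P1 WT hearts, 5 from P7 WT hearts and 4 from P21 WT hearts, where P gives the postnatal day. B6 stands in the titles of P21 WT libraries 2 and 3 and in no other title. The labels name neither the Cre driver nor the cell type of the deletion. They do not say which of the genes called PDK1 was deleted. Nor do they tie libraries to animals, so p-values here measure the spread between libraries, which may be technical. A further P21 library, number 63, carries the cKO genotype label but no KO in its title, and its values are given on their own.

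Mitochondrial carriers are small proteins of the inner mitochondrial membrane that exchange metabolites between the cytosol and the matrix. In heart muscle the adenine nucleotide translocases send ATP out and bring ADP in, the phosphate carrier supplies phosphate for ATP synthesis, and the carnitine-acylcarnitine carrier brings in fatty acids for oxidation. After birth the heart turns from glucose and lactate towards fatty acids as its main fuel, and its mitochondria mature.

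The TPM values keep no sequencing depth, so the counting error behind each level is unknown. The summed level of 8 cardiomyocyte markers was 57700 to 61300 TPM in P21 cKO and 53500 to 59000 TPM in P21 WT hearts, and over all 18 libraries fitted it reached 65200 TPM. Pdpk1, the kinase upstream of AKT, was at 5.54, 5.55 and 4.95 TPM in P21 cKO hearts, against 7.65, 7, 6.17 and 6.6 TPM in P21 WT hearts, and its change was not called (log2 -0.15, limma adjusted p = 0.366). Pdk1, the pyruvate dehydrogenase kinase, was higher in P21 cKO than in P21 WT hearts (log2 0.36, limma adjusted p = 0.0473). A level over a whole gene need not show a deletion of part of it, so neither gene checks the genotype labels. Mitochondrially encoded transcripts made up 20.3% to 20.4% of all TPM in P21 cKO and 22.6% to 24.2% in P21 WT hearts. The median tested gene was 0.22 higher on the log2 scale in P21 cKO than in P21 WT hearts and 0.47 lower (log2 -0.47) in P21 WT than in P7 WT hearts. Changes are therefore given on log2(TPM + 1) and also after median-ratio scaling, which divides each library by a factor (0.71 to 1.22) that brings the median gene to a common level. The pseudocount of 1 understates the change of low genes.

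Together the 47 carriers made up 0.546% to 0.674% of all TPM. The sum was 6350 ± 61.8 TPM in P21 cKO, 6410 ± 338 in P7 cKO, 6290 ± 449 in P1 WT, 5980 ± 457 in P7 WT and 6100 ± 287 in P21 WT hearts (SD, n = 3, 3, 3, 5 and 4). No difference in this sum passed an exact two-sided permutation test (p = 0.257 for P21 cKO against P21 WT, with 0.0286 the smallest p possible, and p = 0.635 for P21 WT against P7 WT), although P7 cKO against P7 WT did so without P7 WT library 72 (6410 against 5800 TPM, exact permutation p = 0.0286). After median-ratio scaling the sum was 7950 at P21 and 5280 at P7 in WT hearts, with no overlap (exact permutation p = 0.00794), and 7070 in P21 cKO hearts against 7950 in P21 WT hearts (exact permutation p = 0.0571). Slc25a4, Slc25a3 and Slc25a5 held 81.8% to 86.9% of it in every library. Slc25a4, the adenine nucleotide translocase of heart and skeletal muscle (ANT1), averaged 3380 TPM over the 18 libraries, Slc25a3, the phosphate carrier, 1365 TPM, and Slc25a5, the translocase of proliferating tissues (ANT2), 518.6 TPM. Next came Slc25a11, the oxoglutarate-malate carrier, at 246.5 TPM and Slc25a20, the carnitine-acylcarnitine carrier, at 101.4 TPM. The other tested members averaged 85 TPM (Slc25a12) down to 1.852 TPM (Slc25a53). The range from the lowest to the highest library of Slc25a11 (194.66 to 281.94 TPM) overlapped none of its neighbours' ranges in this order, while Slc25a20 (51.45 to 144.85 TPM) overlapped Slc25a12 (73.92 to 98.6 TPM).

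**Figure D1:**
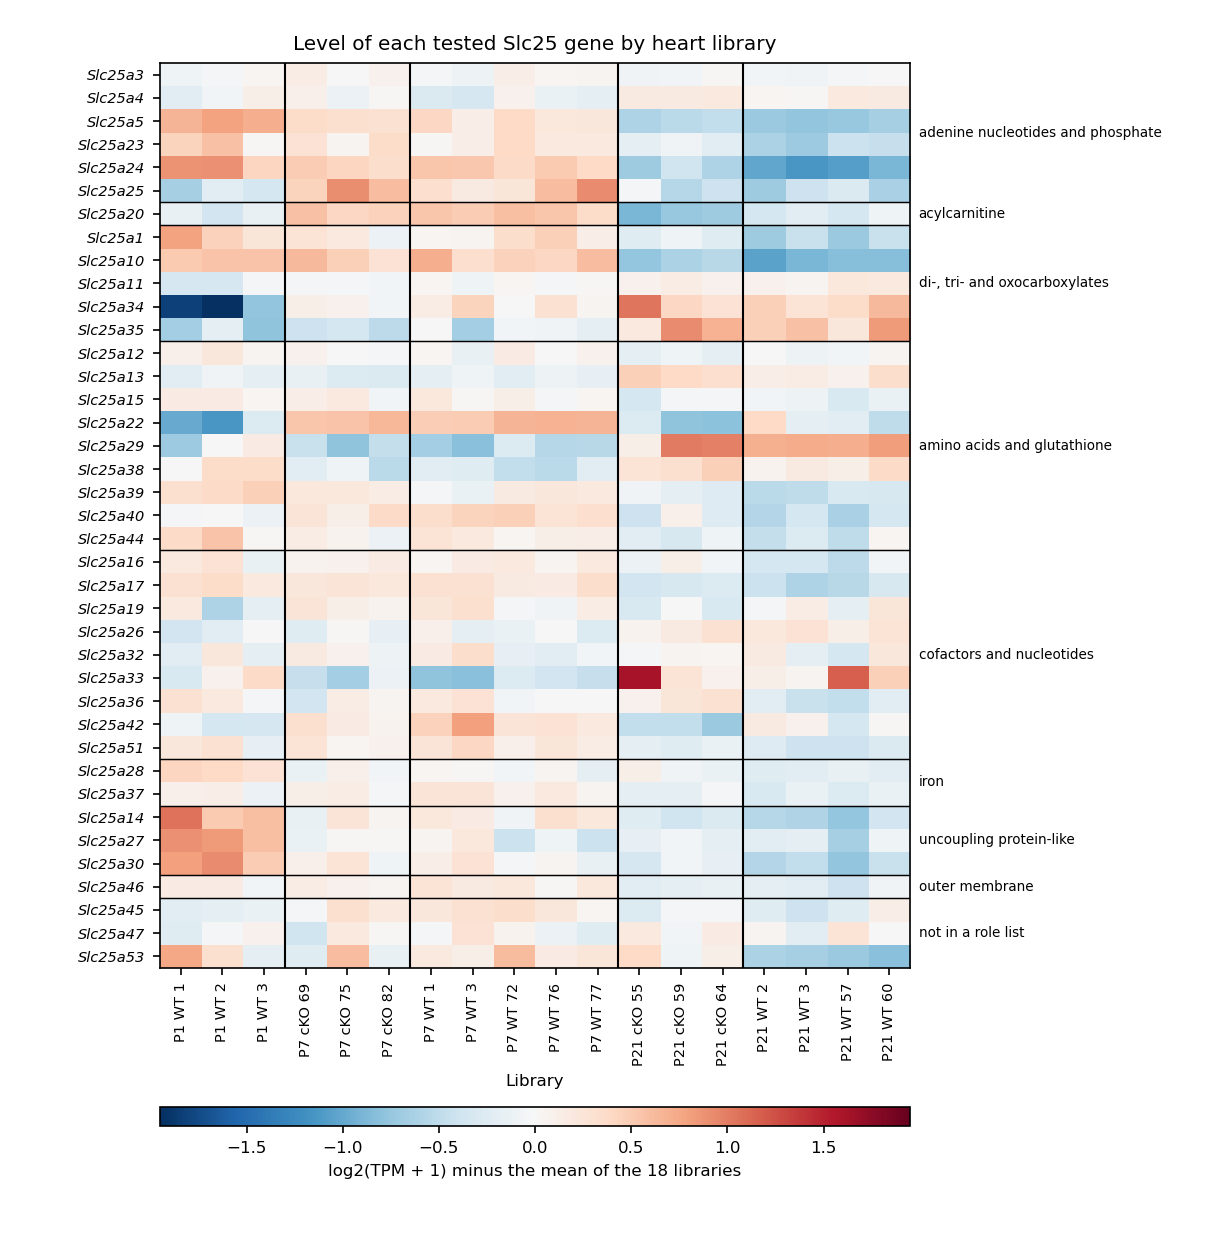
Rows are the 39 tested Slc25 genes grouped by the kind of molecule carried, and columns are the 18 heart libraries grouped by age and genotype. Colour gives log2(TPM + 1) minus the gene's mean over the 18 libraries. Slc25a20 and Slc25a42 are lowest in the 3 P21 cKO libraries, and Slc25a34 is lowest in the 3 P1 WT libraries.

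The balance between the translocases moved towards the muscle form with age: Slc25a5 fell at each step, and Slc25a4 rose between P7 and P21. The genes are printed here by the 250 bases before their annotated start (RefSeq, GRCm38.p6, gene strand), because they carry the same nucleotides and moved in opposite directions after P7. Capitals mark each CCAAT, the box bound by NF-Y, which was found at 2 places before Slc25a4 and nowhere in the Slc25a5 window. The window of Slc25a4 is chr8:46211063-46211312 on the minus strand, and that of Slc25a5 is chrX:36795347-36795596 on the plus strand. The GENCODE start of Slc25a4 lies inside its window, and that of Slc25a5 lies just downstream of it.
Slc25a4: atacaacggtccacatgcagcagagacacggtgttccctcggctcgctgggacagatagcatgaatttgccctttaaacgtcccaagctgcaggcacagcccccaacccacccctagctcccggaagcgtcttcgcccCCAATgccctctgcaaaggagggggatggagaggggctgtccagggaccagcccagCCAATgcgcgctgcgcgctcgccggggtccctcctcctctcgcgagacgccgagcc
Slc25a5: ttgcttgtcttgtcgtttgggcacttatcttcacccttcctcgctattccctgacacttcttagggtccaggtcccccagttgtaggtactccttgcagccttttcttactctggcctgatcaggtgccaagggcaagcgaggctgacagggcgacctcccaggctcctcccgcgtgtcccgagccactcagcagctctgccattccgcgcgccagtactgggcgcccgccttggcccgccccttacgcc

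Slc25a5 was at 768, 834 and 794 TPM in P1 WT hearts, at 640.1, 529, 635, 563 and 566 TPM in P7 WT hearts and at 292, 285, 290.4 and 311 TPM in P21 WT hearts. Its ranges at the 3 ages did not overlap. It was called lower at P7 than at P1 (log2 -0.47 ± 0.07 SE, limma adjusted p = 0.000245) and lower at P21 than at P7 (log2 -0.98 ± 0.06 SE, limma adjusted p = 8.84e-10), and stayed so after median-ratio scaling (-0.41). Slc25a4 was at 2896, 3238 and 3633 TPM in P1 WT hearts, at 2763, 2664, 3549, 3069 and 2969 TPM in P7 WT hearts and at 3442, 3408, 3827 and 3796 TPM in P21 WT hearts. The ages overlapped, since library 72 at P7 stood above 2 of the 4 P21 WT libraries. Slc25a4 was called higher at P21 than at P7 (log2 0.29 ± 0.07 SE, limma adjusted p = 0.00102, 0.87 after scaling), a call not made with letter-code titles alone (0.34, adjusted p = 0.0548). Its lower level at P7 than at P1 (-0.24, limma adjusted p = 0.0446) was no longer called after scaling (-0.24, adjusted p = 0.177). It was also not called with letter-code titles alone (-0.26), without the filter on low values (-0.24), after removal of mitochondrial and globin genes (-0.19), without the title style in the model (-0.12), without P1 WT library 2 (-0.24) or 3 (-0.15), or without P7 WT library 1 (-0.24), 3 (-0.21), 76 (-0.23) or 77 (-0.22).

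The share of Slc25a4 in the sum of Slc25a4 and Slc25a5 is a ratio within a library and does not depend on the scaling. It was 79, 79.5 and 82.1% in P1 WT hearts, 81.2, 83.4, 84.8, 84.5 and 84% in P7 WT hearts and 92.2, 92.3, 92.9 and 92.4% in P21 WT hearts. The P21 libraries all lay above the P7 libraries, and P7 and P1 overlapped. The share averaged 92.5 ± 0.342% at P21 and 83.6 ± 1.44% at P7 (SD, n = 4 and 5; exact two-sided permutation p = 0.00794, the smallest this design allows, 0.0476 adjusted over 12 tests). Against 80.2 ± 1.62% at P1 (n = 3), the P7 share gave an exact permutation p of 0.0536, which became 0.0286 without P7 WT library 1 and 0.0476 without P1 WT library 3. With letter-code titles alone the share averaged 92.2% at P21 and 82.3% at P7, with 2 libraries each and no overlap. In P21 cKO hearts the share was 92.2, 91.8 and 91.7%, a mean of 91.9%, against 92.5% in P21 WT hearts (exact permutation p = 0.114, with 0.0286 the smallest possible). In P7 cKO hearts it was 85.3, 83.8 and 85.1%, a mean of 84.7%, against 83.6% in P7 WT hearts (exact permutation p = 0.268). Both cKO groups overlapped their WT groups. With plain-number WT libraries alone, all 3 P21 cKO libraries lay below both P21 WT libraries (91.9% against 92.7%), where an exact test could not go below p = 0.1.

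**Figure D2:**
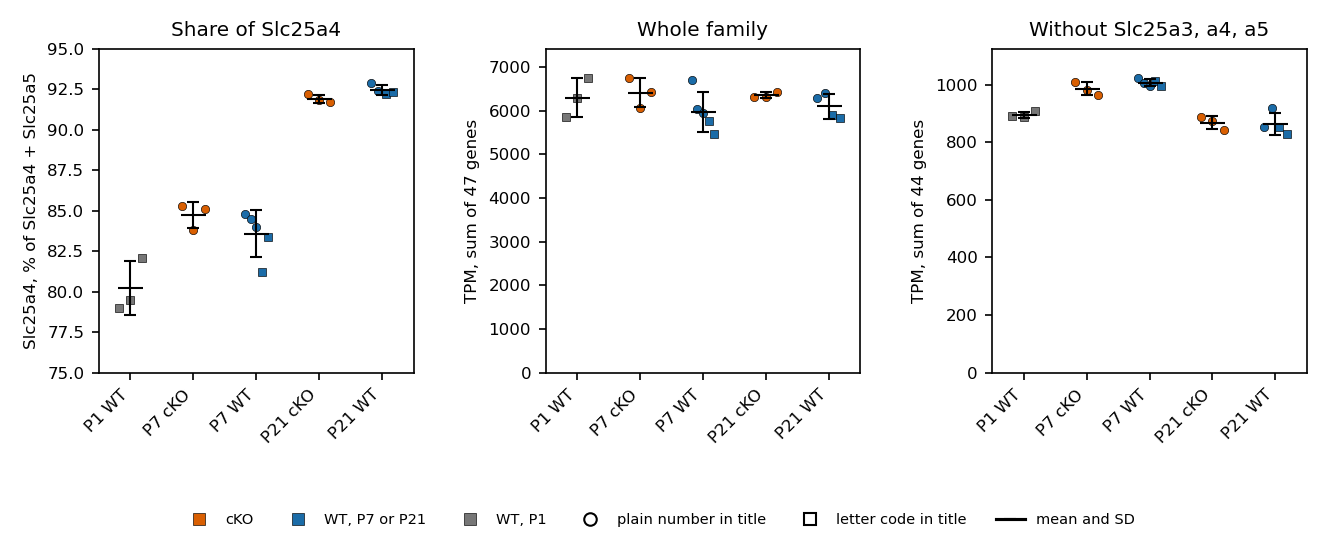
Left, Slc25a4 as a percentage of Slc25a4 plus Slc25a5 (axis from 75 to 95%); middle, the summed TPM of the 47 Slc25 genes; right, the sum without Slc25a3, Slc25a4 and Slc25a5. Points are libraries, lines are means and bars SDs; the share averages 80.2% at P1 WT, 83.6% at P7 WT and 92.5% at P21 WT, while the whole sum stays between 5460 and 6740 TPM.

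Slc25a31, the testis translocase (ANT4), stayed below 1 TPM in every library, from 0.06 TPM in P7 WT library 3 to 0.93 TPM in P7 cKO library 75, and was not tested. Slc25a3 was at 1304, 1312 and 1390.0 TPM in P21 cKO hearts, against 1313, 1297, 1324 and 1375 TPM in P21 WT hearts. At P7 it was at 1500.4, 1370.4 and 1442 TPM in cKO hearts, against 1336, 1277, 1491, 1393 and 1412 TPM in WT hearts, and P1 WT hearts had 1289.8, 1332 and 1407 TPM. All these ranges overlapped, and the phosphate carrier was called in no comparison on TPM. After median-ratio scaling it was called higher at P21 than at P7 in WT hearts (log2 0.52, limma adjusted p = 3.34e-05), against -0.05 without scaling. Slc25a5 has 7 near-identical copies in the annotation (at least 90% identity over at least 300 bases), none averaging 1 TPM here, so its level is uncertain as far as reads were split between them.

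In the first postnatal week of WT hearts, the acylcarnitine carrier Slc25a20, the coenzyme A carrier Slc25a42 and the glutamate carrier Slc25a22 rose. The 3 uncoupling protein-like Slc25 members, all at low levels, fell. Of 39 members, 6 were called higher and 9 lower at P7 than at P1, against 13.8% of all genes higher and 14.7% lower. After scaling the counts were 6 and 7, against 14.8% and 16.1% of all genes. The median member changed by -0.01 and the median gene by 0 on the log2 scale. Slc25a20, which exchanges acylcarnitine for carnitine, was at 140.3, 136, 145, 140.1 and 123 TPM in P7 WT hearts, against 86.8, 73.8 and 86.5 TPM in P1 WT hearts. Every P7 library lay above every P1 library (log2 0.72 ± 0.09 SE, limma adjusted p = 6.2e-05).

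Slc25a42, a carrier of coenzyme A, was at 32.5, 41.5, 28.1, 28.8 and 26.9 TPM in P7 WT hearts, against 22.0, 18.3 and 18.5 TPM in P1 WT hearts. The groups did not overlap (log2 0.85 ± 0.12 SE, limma adjusted p = 0.000112). Slc25a34, a little-studied carrier related to dicarboxylate carriers, gave the largest rise of the 6 (log2 1.72 ± 0.25 SE, limma adjusted p = 0.000192). It was at 35.4, 43.2, 31.9, 39.5 and 33.1 TPM in P7 WT hearts, against 8.29, 7.49 and 18.2 TPM in P1 WT hearts, where library 3 stood above the other two. Slc25a22, a glutamate carrier, was at 36.0, 36.5, 41.1, 41.6 and 40.8 TPM in P7 WT hearts, against 12.4, 11.1 and 21.1 TPM in P1 WT hearts. Again the groups did not overlap and P1 library 3 was the highest of its group (log2 1.45 ± 0.22 SE, limma adjusted p = 0.000266).

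The smaller rises were in Slc25a25, a calcium-regulated carrier of ATP-Mg and phosphate, and Slc25a40, a relative of the glutathione carrier. Slc25a25 was at 7.48, 6.68, 7.01, 9.29 and 11.8 TPM in P7 WT hearts, against 3.30, 4.84 and 4.33 TPM in P1 WT hearts (log2 0.72, limma adjusted p = 0.0118). Its groups did not overlap, but the call was lost without P1 WT library 1 (0.60, adjusted p = 0.0514). Slc25a40 was at 7.99, 8.55, 8.77, 7.53 and 7.87 TPM in P7 WT hearts, against 5.89, 6.06 and 5.49 TPM in P1 WT hearts (log2 0.44, limma adjusted p = 0.0175). Here too no library overlapped, and the call was lost without P7 WT library 3 (0.42, adjusted p = 0.0635). The sum of the family without Slc25a3, Slc25a4 and Slc25a5 was 1010 ± 12 TPM at P7 and 895 ± 11.5 TPM at P1 (SD, n = 5 and 3), with no overlap (exact permutation p = 0.0179, the smallest possible, 0.0716 adjusted over 12 tests). After scaling, 887 at P7 and 770 at P1 overlapped (exact permutation p = 0.0714).

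At P7 against P1 in WT hearts, 14.7% of all genes were called lower, and 16.1% after scaling. All 3 uncoupling protein-like members were called lower, with and without scaling: Slc25a27 (UCP4), Slc25a30 (KMCP1) and Slc25a14 (UCP5). The uncoupling proteins named otherwise did not fall with them. Ucp2 averaged 188 TPM at P7 and 90.5 TPM at P1, and Ucp3 40.6 and 6.03 TPM, while Ucp1 was at 0.022 and 0.0233 TPM. Slc25a27 was at 3.55, 4.05, 2.25, 3.11 and 2.26 TPM in P7 WT hearts, against 7.14, 6.76 and 5.53 TPM in P1 WT hearts (log2 -0.71, limma adjusted p = 0.00255). Slc25a30 was at 5.31, 6.07, 4.67, 5 and 4.25 TPM in P7 WT hearts, against 9.11, 9.99 and 7.16 TPM in P1 WT hearts (log2 -0.58, limma adjusted p = 0.00539). For both, every P7 library lay below every P1 library. Slc25a14 averaged 2.55 TPM at P7 and 4.26 TPM at P1 (log2 -0.54, limma adjusted p = 0.0192), and its call was lost without P1 WT library 1 (-0.37, adjusted p = 0.0904) or P7 WT library 3 (-0.54, adjusted p = 0.0569).

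The glutathione carrier Slc25a39, the iron carrier Slc25a28 and the glycine carrier Slc25a38 also fell in that week, while Slc25a37, the other iron carrier, was not called. Slc25a39 was at 70.5, 65.9, 81.98, 84.8 and 82.9 TPM in P7 WT hearts, against 90.1, 94.2 and 100.1 TPM in P1 WT hearts (log2 -0.45, limma adjusted p = 0.000108). Slc25a28, mitoferrin 2, was at 19.0, 18.9, 17.8, 19.3 and 16.4 TPM in P7 WT hearts, against 25.2, 24.6 and 22.8 TPM in P1 WT hearts (log2 -0.37, limma adjusted p = 0.00509). Slc25a38, which carries glycine for heme synthesis, was at 8.75, 8.48, 7.05, 6.77 and 8.62 TPM in P7 WT hearts, against 10.2, 13.3 and 13.3 TPM in P1 WT hearts (log2 -0.54, limma adjusted p = 0.00932). None of the 3 genes, which were picked by their small p, overlapped between the ages. Slc25a37, mitoferrin 1, was at 7.98, 7.96, 6.95, 7.57 and 6.81 TPM in P7 WT hearts, against 7.08, 7.2 and 5.95 TPM in P1 WT hearts, and the groups overlapped (log2 0.17). Slc25a33, a pyrimidine nucleotide carrier, completed the 9 lower calls (log2 -0.94 ± 0.31 SE, limma adjusted p = 0.0352). It was not called after scaling (-0.93, adjusted p = 0.0562), nor without the filter on low values (-0.94) or the title style in the model (-0.59), P1 WT library 2 (-0.92) or 3 (-0.78), or P7 WT library 1 (-0.99) or 3 (-0.98). All P1 libraries have letter-code titles. With such libraries alone Slc25a33 was still called, and 6 members lost their calls: Slc25a4 (-0.26, adjusted p = 0.171), Slc25a25 (0.66, adjusted p = 0.0503), Slc25a40 (0.44, 0.0551), Slc25a30 (-0.54, 0.0655), Slc25a38 (-0.45, 0.0714) and Slc25a14 (-0.53, 0.099).

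Between P7 and P21, 24 of 39 members were called lower and 8 higher in WT hearts, against 64.4% and 8.1% of all genes, so the lower calls were near the share in the whole table. The P21 comparison shares its 5 P7 WT libraries with the comparison of P7 with P1. The median member changed by -0.40 and the median gene by -0.47, and 25 of 39 members lay above the median gene. After median-ratio scaling 18 members were called higher and 9 lower, against 27% and 27.4% of all genes. Of the 24 members lower on TPM, 10 turned to a positive change with scaling (Slc25a15, Slc25a16, Slc25a28, Slc25a36, Slc25a37, Slc25a39, Slc25a42, Slc25a44, Slc25a45 and Slc25a46), 3 of them called higher (Slc25a15, Slc25a28 and Slc25a46). The 9 members called lower both ways were Slc25a1, Slc25a5, Slc25a10, Slc25a14, Slc25a17, Slc25a24, Slc25a25, Slc25a40 and Slc25a53.

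The members higher at P21 than at P7 with and without scaling included carriers of basic amino acids, aspartate, glycine and pyrimidine nucleotides. Slc25a29, which carries arginine and lysine, was at 3.33, 3.46, 3.40 and 3.75 TPM in P21 WT hearts, against 0.7, 0.53, 1.24, 0.82 and 0.85 TPM in P7 WT hearts (log2 1.32 ± 0.20 SE, limma adjusted p = 1.96e-05). Slc25a33 was at 8.07, 7.74, 17.8 and 10.6 TPM in P21 WT hearts, against 3.86, 3.79, 5.96, 5.5 and 5.19 TPM in P7 WT hearts (log2 1.04 ± 0.25 SE, limma adjusted p = 0.0016). Slc25a38 was at 10.7, 11.6, 11.2 and 13.5 TPM in P21 WT hearts, above every P7 WT library given above (log2 0.51 ± 0.11 SE, limma adjusted p = 0.000774). These 3 genes were picked by their small p, and their P21 and P7 libraries did not overlap. P21 WT library 57 held the highest Slc25a33 level of its group.

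The aspartate-glutamate carriers of the malate-aspartate shuttle, which moves reducing power into mitochondria, differed from each other. Slc25a13 (citrin) was at 46.8, 47.5, 45.6 and 54.4 TPM in P21 WT hearts, against 38.0, 40.3, 37.1, 39.7 and 38.0 TPM in P7 WT hearts, with no overlap (log2 0.32 ± 0.06 SE, limma adjusted p = 0.000187). Slc25a12 (aralar), the more abundant form, was at 85.1, 78.8, 81.7 and 87.9 TPM in P21 WT hearts, against 87.0, 76.6, 94.98, 84.6 and 90.1 TPM in P7 WT hearts. These groups overlapped, and Slc25a12 was called only after scaling (log2 -0.04, 0.52 scaled). At P1, Slc25a13 was at 37.0, 40.8 and 37.5 TPM and Slc25a12 at 91.2, 98.6 and 88.3 TPM.

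Slc25a11, the shuttle's oxoglutarate-malate carrier, was at 260.3, 256, 282 and 280.0 TPM in P21 WT hearts, against 252, 231, 252, 238 and 248 TPM in P7 WT hearts. No library overlapped, but the step was small (log2 0.15 ± 0.06 SE, limma adjusted p = 0.0276). Its call was lost without P7 WT library 3 (0.14) or 76 (0.13), or P21 WT library 57 (0.14) or 60 (0.14). Slc25a35, a relative of Slc25a34, was at 3.19, 3.49, 2.54 and 4.41 TPM in P21 WT hearts, against 2.05, 0.91, 1.92, 1.89 and 1.67 TPM in P7 WT hearts (log2 0.73 ± 0.18 SE, limma adjusted p = 0.00183). That level is uncertain, because 31.3% of the exon bases of Slc25a35 overlap those of Rangrf on the other strand, which averaged 39.7 TPM, and whether strand was counted is not given in the sources used here. Slc25a11 shares 189 exon bases with Rnf167 in the same way. Slc25a26, which carries S-adenosylmethionine, was the last of the 8 (log2 0.30, limma adjusted p = 0.00904). With letter-code libraries alone, Slc25a11 (0.10, adjusted p = 0.493), Slc25a26 (0.28, adjusted p = 0.165) and Slc25a38 (0.34, adjusted p = 0.0925) lost their calls, as did 3 of the lower members, Slc25a53 (-0.78, adjusted p = 0.0512), Slc25a22 (-0.39, adjusted p = 0.308) and Slc25a15 (-0.18, adjusted p = 0.257).

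Slc25a34 was at 44.4, 38.3, 41.2 and 49.6 TPM in P21 WT hearts, and was called higher only after scaling (log2 0.24, 0.80 scaled). The groups overlapped.

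Among the members lower at P21 were the dicarboxylate carrier Slc25a10, the ATP-Mg and phosphate carrier Slc25a24 and Slc25a53, a low member at 0.67 TPM in P21 WT hearts against 2.29 TPM in P7 WT hearts (log2 -0.96, limma adjusted p = 0.000432, -0.67 scaled). Slc25a10 was at 5.46, 6.18, 6.5 and 6.45 TPM in P21 WT hearts, against 20.7, 15.8, 17.2, 16.7 and 19.1 TPM in P7 WT hearts (log2 -1.39 ± 0.09 SE, limma adjusted p = 2.56e-09, -0.88 scaled). Slc25a24 was at 2.40, 2.12, 2.25 and 2.72 TPM in P21 WT hearts, against 9.01, 8.93, 7.94, 8.83 and 7.98 TPM in P7 WT hearts (log2 -1.50 ± 0.10 SE, limma adjusted p = 5.18e-09, -1.06 scaled). Neither gene overlapped between the ages. Slc25a17, the peroxisomal carrier of coenzyme A and nucleotide cofactors, was at 12.2, 10.6, 11.1 and 13.2 TPM in P21 WT hearts, against 20.6, 20.7, 19.0, 18.7 and 21.4 TPM in P7 WT hearts (log2 -0.72 ± 0.07 SE, limma adjusted p = 2e-07, -0.19 scaled). Again no library overlapped.

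Slc25a20 was at 75.4, 81.8, 75.4 and 90.3 TPM in P21 WT hearts, below every P7 WT library (log2 -0.75 ± 0.07 SE, limma adjusted p = 2.56e-07). After scaling its change was -0.19 and not called (adjusted p = 0.0653). Slc25a39 was at 50.3, 51.4, 58.7 and 58.4 TPM in P21 WT hearts, also below every P7 WT library (log2 -0.46 ± 0.05 SE, limma adjusted p = 6.29e-07), with 0.10 after scaling. Slc25a37 was at 5.11, 5.87, 5.26 and 5.84 TPM in P21 WT hearts (log2 -0.38, limma adjusted p = 0.000404), with 0.11 after scaling. For the last 2 genes the sign of the estimate thus depended on the scaling. Neither was called after it (limma adjusted p = 0.281 for Slc25a39 and 0.132 for Slc25a37). The small falls of Slc25a28 and Slc25a15, the ornithine carrier, rested on single libraries as well as on the scaling. The change of Slc25a28 (-0.19) was not called without P7 WT library 1 (-0.17), 3 (-0.17) or 76 (-0.16), or P21 WT library 2 (-0.17) or 3 (-0.17). That of Slc25a15 (-0.22) was not called without P7 WT library 1 (-0.20) or 72 (-0.20), or P21 WT library 3 (-0.22) or 57 (-0.18). Neither was called after removal of mitochondrial and globin genes (-0.09 for Slc25a28 and -0.14 for Slc25a15). The sum of the family without Slc25a3, Slc25a4 and Slc25a5 was 863 ± 39 TPM at P21 and 1010 ± 12 TPM at P7 (SD, n = 4 and 5), with no overlap (exact permutation p = 0.00794, the smallest possible, 0.0476 adjusted over 12 tests). After scaling this direction turned round, to 1120 at P21 and 887 at P7, again with no overlap (exact permutation p = 0.00794).

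**Figure D3:**
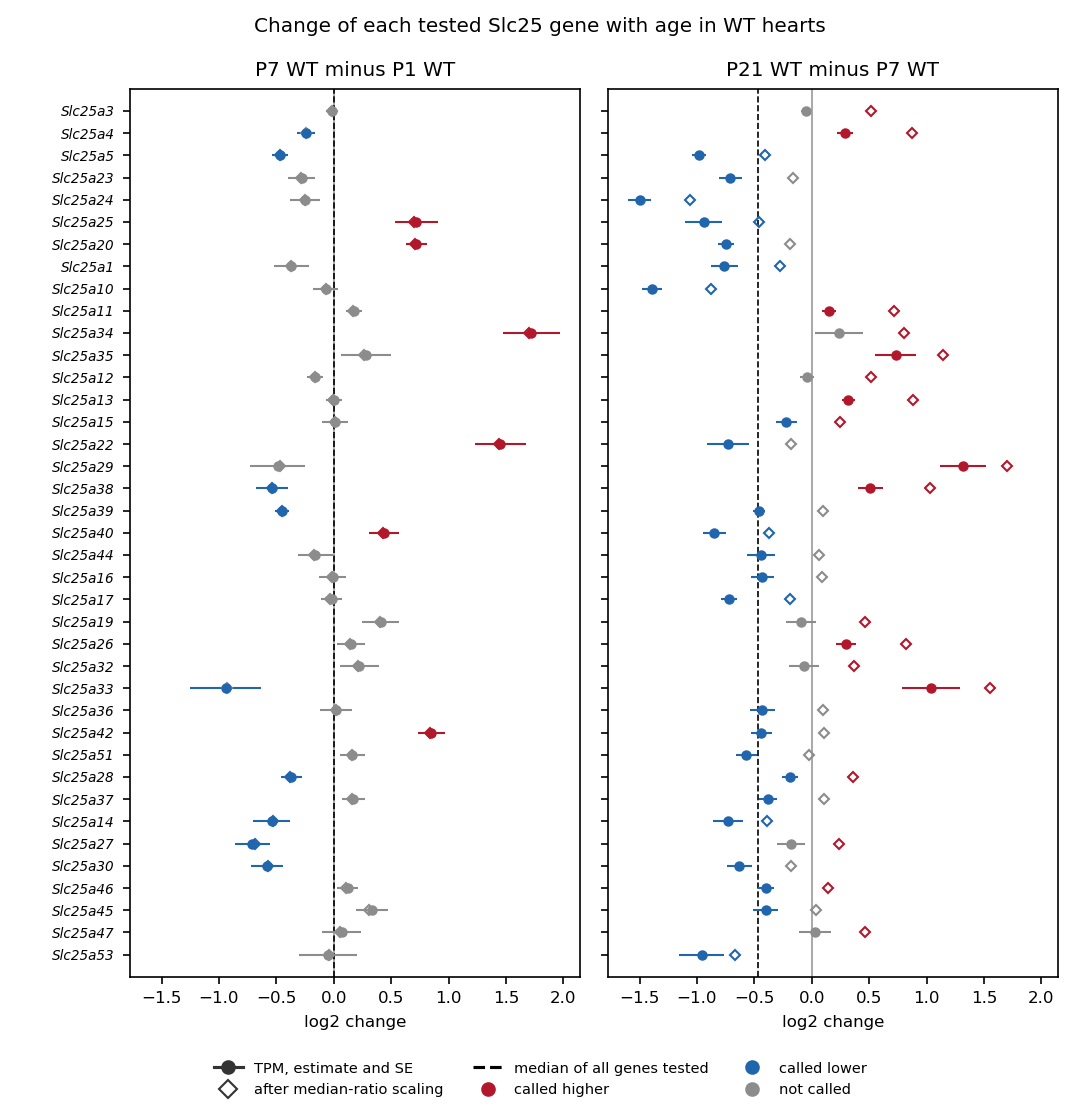
Each line is 1 of the 39 tested Slc25 genes, in the order of the heat map of levels, and the horizontal axis is the log2 change, P7 WT minus P1 WT on the left and P21 WT minus P7 WT on the right. Filled points with bars are estimates and standard errors on TPM, open diamonds the change after median-ratio scaling, and the dashed line the median of all genes tested (0 and -0.47). On the right most diamonds lie above their points, and Slc25a24 and Slc25a10 are lower both ways.

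At P7 no carrier differed between cKO and WT hearts beyond the spread between libraries. Of 39 members 0 were called higher and 0 lower with limma, against 0.0203% and 0% of all genes. At an unadjusted p under 0.05 the count was 0 of 39 members and 494 of 14812 genes. The estimates ran from -0.28 ± 0.21 SE (Slc25a35) to 0.23 ± 0.14 SE (Slc25a27), and their median was -0.04, with -0.02 for the median gene. Slc25a20 was at 143, 128 and 132 TPM in P7 cKO hearts, within the range of P7 WT hearts (log2 -0.03 ± 0.09 SE). Slc25a4 was at 3611, 3115 and 3417 TPM in P7 cKO hearts, also overlapping P7 WT hearts (log2 0.10 ± 0.08 SE). The remaining carriers followed by library overlapped as well. P7 cKO hearts had 242, 239 and 237 TPM of Slc25a11, 89.4, 85.3 and 82.1 TPM of Slc25a12 and 38.6, 35.6 and 35.2 TPM of Slc25a13. They had 623, 601 and 598 TPM of Slc25a5, 34.6, 33.9 and 30.7 TPM of Slc25a34 and 7.17, 7.30 and 6.41 TPM of Slc25a37.

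At P21 the acylcarnitine carrier Slc25a20 and, less firmly, the coenzyme A carrier Slc25a42 were lower in cKO than in WT hearts, and 4 less abundant carriers were higher. Slc25a17, the peroxisomal carrier of coenzyme A, was not called (log2 0.15, -0.10 scaled). The acylcarnitine carrier Slc25a20 had 51.5, 57.1 and 59.04 TPM in P21 cKO hearts, against 75.4, 81.8, 75.4 and 90.3 TPM in P21 WT hearts. Every cKO library lay below every WT library, and indeed below every other library fitted. The means were 55.9 ± 3.94 and 80.7 ± 7.06 TPM (SD, n = 3 and 4; log2 -0.53 ± 0.09 SE, limma adjusted p = 0.00162). After scaling the change was -0.79 (limma adjusted p = 0.000279). Its level as a percentage of that of Slc25a4 in the same library is not changed by scaling. This percentage was 1.35, 1.51 and 1.54% in P21 cKO hearts, against 2.19, 2.4, 1.97 and 2.38% in P21 WT hearts. At P7 it was 3.96, 4.1 and 3.86% in cKO hearts, against 5.08, 5.1, 4.08, 4.57 and 4.14% in WT hearts, and the groups overlapped. P21 library 63 had 83.7 TPM of Slc25a20, inside the range of the P21 WT group.

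Slc25a42 was at 16.6, 16.6 and 13.9 TPM in P21 cKO hearts, against 26.7, 24.9, 18.4 and 23.9 TPM in P21 WT hearts, with no overlap (log2 -0.37 ± 0.12 SE, limma adjusted p = 0.0359). WT library 57 was the nearest to the cKO libraries. The call was lost without cKO library 59 (-0.41) or 64 (-0.29), or WT library 2 (-0.37) or 60 (-0.26), without the filter on low values (-0.37, adjusted p = 0.0687), and with plain-number libraries alone (-0.40, adjusted p = 0.0646). After scaling the change was -0.63 (limma adjusted p = 0.00248). Library 63 had 20.9 TPM.

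Slc25a36, which carries pyrimidine nucleotides into the matrix, had 16.9, 18.8 and 19.7 TPM in P21 cKO hearts, against 13.6, 11.4, 11.1 and 13.6 TPM in P21 WT hearts. Again the groups did not overlap (log2 0.61 ± 0.14 SE, limma adjusted p = 0.00699). It was called in every alternative run, with 0.37 after scaling (limma adjusted p = 0.0417). Library 63 had 13 TPM, inside the WT range. The windows of 250 bases before Slc25a20 (chr9:108661886-108662135, plus strand) and Slc25a36 (chr9:97111042-97111291, minus strand) are shown because these genes gave the 2 calls that every alternative kept (RefSeq, GRCm38.p6). Capitals mark CACGTG, an E-box, and CCAAT, which were found before Slc25a36 and not before Slc25a20. The GENCODE start of each gene lies inside its window.
Slc25a20: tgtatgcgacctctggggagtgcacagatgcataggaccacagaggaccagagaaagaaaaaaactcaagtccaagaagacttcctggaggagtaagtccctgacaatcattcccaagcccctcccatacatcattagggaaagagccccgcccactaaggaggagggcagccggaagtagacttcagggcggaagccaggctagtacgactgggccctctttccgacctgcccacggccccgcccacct
Slc25a36: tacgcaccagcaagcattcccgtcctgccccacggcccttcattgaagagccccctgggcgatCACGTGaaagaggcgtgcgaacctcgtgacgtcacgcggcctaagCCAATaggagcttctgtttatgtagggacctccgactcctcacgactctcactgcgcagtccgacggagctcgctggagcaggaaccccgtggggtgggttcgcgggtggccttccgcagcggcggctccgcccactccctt

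**Figure D4:**
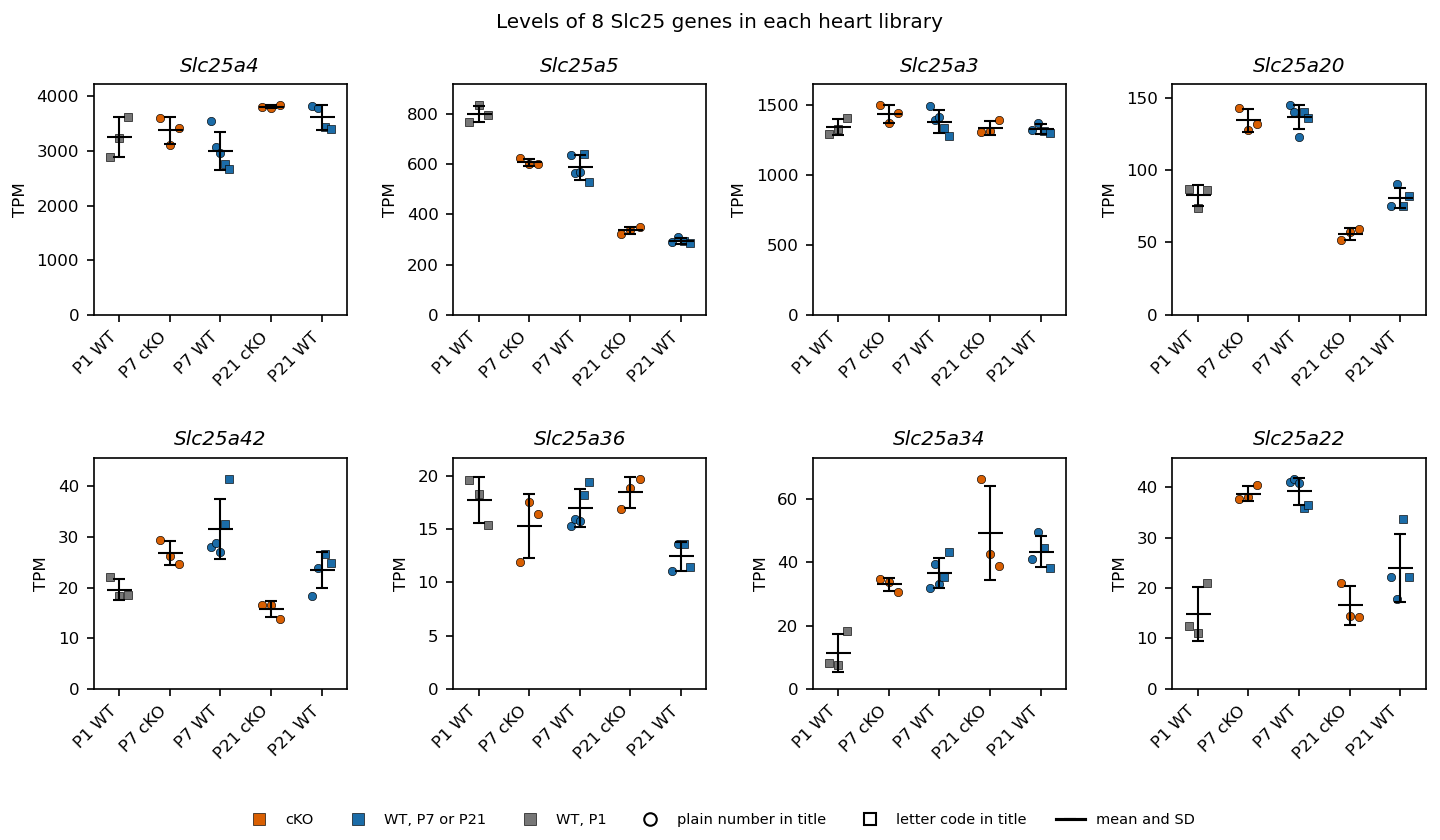
TPM of 8 Slc25 genes in each library of P1 WT, P7 cKO, P7 WT, P21 cKO and P21 WT hearts; circles are plain-number titles, squares letter-code titles, lines means and bars SDs. Slc25a20 and Slc25a42 are highest at P7 and lowest in P21 cKO hearts, and the 3 P21 cKO libraries of Slc25a36 (16.9 to 19.7 TPM) lie above the 4 P21 WT libraries (11.1 to 13.6 TPM).

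The 3 other members higher in P21 cKO hearts were less certain. Slc25a24 had 3.26, 4.24 and 3.53 TPM in P21 cKO hearts, against 2.40, 2.12, 2.25 and 2.72 TPM in P21 WT hearts (log2 0.48 ± 0.13 SE, limma adjusted p = 0.0177). Slc25a30 had 3.6, 4.58 and 4.18 TPM in P21 cKO hearts, against 2.91, 3.16, 2.40 and 3.31 TPM in P21 WT hearts (log2 0.46 ± 0.14 SE, limma adjusted p = 0.0285). Slc25a53, a little-studied member, had 2.54, 1.55 and 1.95 TPM in P21 cKO hearts, against 0.77, 0.73, 0.64 and 0.54 TPM in P21 WT hearts (log2 0.82 ± 0.25 SE, limma adjusted p = 0.0293). The 3 were picked by their small p, and none overlapped between the groups. Yet all 3 calls were lost after scaling (0.29, 0.27 and 0.74) and with plain-number libraries alone. That of Slc25a24 was also lost without cKO library 59 (0.39) or WT library 57 (0.45). That of Slc25a30 was lost without cKO library 59 (0.40) or 64 (0.45), or WT library 57 (0.39), without the title style in the model (0.38, adjusted p = 0.0519) and without the filter on low values (0.46, adjusted p = 0.0568). For Slc25a53 it was lost without cKO library 55 (0.70) or 64 (0.83), or WT library 57 (0.80) or 60 (0.74), and without the filter on low values (0.82, adjusted p = 0.0698).

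In all, 4 of 39 members were called higher and 2 lower in P21 cKO hearts, against 19.5% and 1.77% of all genes. After scaling 1 was called higher and 3 lower, against 4% and 5.33% of all genes; the third was Slc25a12 (-0.44, limma adjusted p = 0.00327, and -0.18 with adjusted p = 0.083 without scaling). The counts moved with single libraries, to 1 higher without WT library 57, 8 without WT library 60 and 2 without cKO library 59 or 64. The median member changed by 0.12 and the median gene by 0.22, and 28 of 39 members lay below the median gene. Slc25a12 was at 73.9, 79.7 and 74.7 TPM in P21 cKO hearts, with library 59 inside the P21 WT range. The most abundant carriers were called neither way on TPM. Slc25a4 was at 3809, 3791 and 3844 TPM in P21 cKO hearts, with 2 of the 4 WT libraries at similar levels (log2 -0.02 ± 0.08 SE, -0.28 scaled). Slc25a5 was at 320.4, 338 and 347 TPM in P21 cKO hearts, all above the P21 WT libraries, without a call (log2 0.17 ± 0.07 SE, limma adjusted p = 0.096), and its change was -0.09 after scaling. The family without Slc25a3, Slc25a4 and Slc25a5 summed to 868 TPM in P21 cKO and 863 TPM in P21 WT hearts (exact permutation p = 0.857), and to 965 and 1120 after scaling, where the groups did not overlap (exact permutation p = 0.0286, the smallest possible).

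The other carriers followed by library were not called at P21 either. Slc25a11 had 259.7, 271 and 261 TPM in P21 cKO hearts, which overlapped P21 WT hearts (log2 -0.06 ± 0.07 SE). Slc25a13 had 59.4, 56.3 and 53.8 TPM in P21 cKO hearts, with only WT library 60 inside that range (log2 0.21 ± 0.07 SE, limma adjusted p = 0.0597). Slc25a37 had 5.66, 5.59 and 6.41 TPM in P21 cKO hearts, again overlapping WT. Slc25a34 had 66.4, 42.6 and 38.8 TPM and Slc25a33 had 24.5, 9.14 and 7.93 TPM in P21 cKO hearts. In both genes cKO library 55 stood above every other library fitted, and the other 2 cKO libraries lay within the WT range. In Slc25a22, cKO values of 21.1, 14.4 and 14.2 TPM stood against 33.6, 22.2, 22.1 and 17.9 TPM in P21 WT hearts, overlapping and without a call (log2 -0.44 ± 0.22 SE, limma adjusted p = 0.161).

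**Figure D5:**
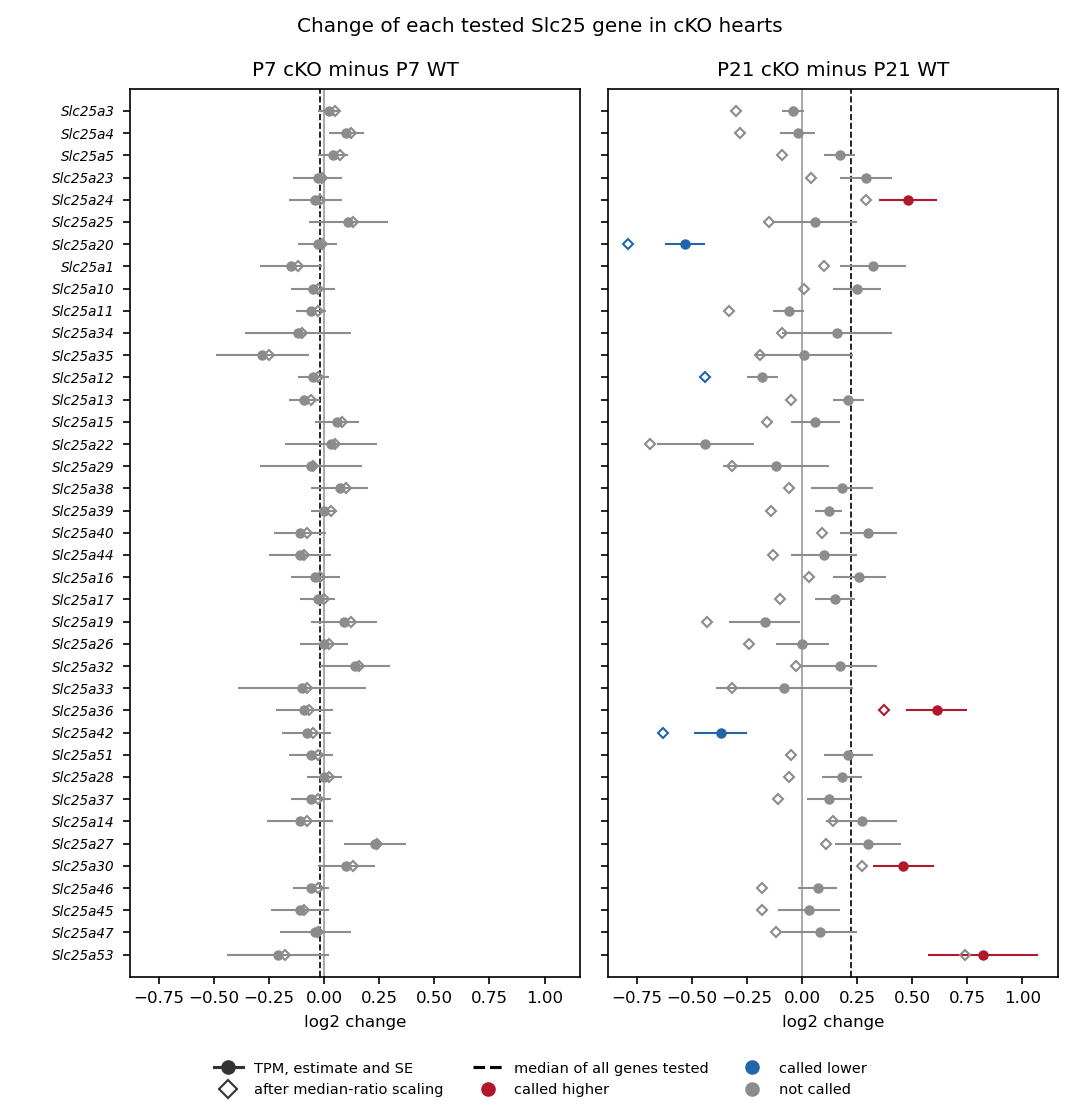
Each line is 1 of the 39 tested Slc25 genes and the horizontal axis, the same in both panels, is the log2 change, P7 cKO minus P7 WT on the left and P21 cKO minus P21 WT on the right. Filled points with bars are estimates and standard errors on TPM, open diamonds the change after median-ratio scaling, and the dashed line the median of all genes tested (-0.02 and 0.22). At P21 Slc25a20 and Slc25a42 lie furthest left among the called genes, and Slc25a36 is called higher both ways.

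Markers of other cell types moved in the same comparison. All 6 fibroblast markers were called higher in P21 cKO hearts (summed level 804 to 994 TPM in P21 cKO and 517 to 646 TPM in P21 WT hearts), as were 5 of 6 endothelial markers (341 to 376 TPM in P21 cKO and 215 to 292 TPM in P21 WT hearts). None of these markers was at 0. Of 8 cardiomyocyte markers 0 were called, and of 6 macrophage markers 0, while 19.5% of all genes were called higher. After scaling 4 fibroblast markers and 1 endothelial marker were called higher (against 4% of all genes), and 1 cardiomyocyte marker (Tnnt2, -0.34) and 1 macrophage marker (C1qa, -0.53) lower (against 5.33%). Between the ages of WT hearts, 5 of 6 fibroblast markers (517 to 646 TPM at P21 and 1300 to 1790 TPM at P7) and all 6 endothelial markers (215 to 292 TPM at P21 and 471 to 531 TPM at P7) were called lower at P21, while 5 of 6 macrophage markers were called higher (110 to 165 TPM at P21 and 60.6 to 69.8 TPM at P7). In that comparison 64.4% of all genes were called lower and 8.1% higher. After scaling 4 fibroblast and 4 endothelial markers were called lower and 1 of each higher, and all 6 macrophage markers were called higher. The shares of all genes after scaling were 27.4% lower and 27% higher. The part of these cells in the carrier changes was not tested. In whole-heart RNA, fewer cells of a type and less RNA per cell cannot be told apart. Of 8 markers of brown fat, a tissue rich in carriers, 5 were tested and 0 called in P21 cKO hearts, with or without scaling. The levels of these markers differed widely. Ucp1 averaged 0 TPM in P21 cKO and 0.105 TPM in P21 WT hearts, and Elovl3 0 and 0.015 TPM. Cox7a1 averaged 2250 TPM in P21 cKO and 2230 TPM in P21 WT hearts, and Ppargc1a 34.9 and 27.6 TPM. The fat cell genes Adipoq (1.26 TPM in P21 cKO and 0.7 TPM in P21 WT hearts) and Plin1 (0.61 and 0.31 TPM), and the deiodinase gene Dio2 (0.423 and 0.25 TPM), had higher means in cKO hearts, and Cidea (18.6 and 20.6 TPM) a lower one.

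The difference between the cKO effects at P21 and at P7 was tested directly. It passed for 1 member higher (against 7.04% of all genes) and 1 lower (against 0.52%). After scaling 0 members passed as higher (against 0.932%) and 3 as lower (against 1.4%). For Slc25a20 the effect was -0.53 at P21 and -0.03 at P7, a difference of -0.50 ± 0.12 SE (limma adjusted p = 0.0207, -0.78 scaled). That difference was not called without P7 cKO library 69 (-0.45, adjusted p = 0.0659) or with plain-number libraries alone (-0.54, adjusted p = 0.104). For Slc25a36 the effect was 0.61 at P21 and -0.09 at P7, a difference of 0.70 ± 0.17 SE (limma adjusted p = 0.0248). Its difference was not called after scaling (0.43, adjusted p = 0.109) or with plain-number libraries alone (0.60, adjusted p = 0.182). Nor was it called without the filter on low values (0.70, adjusted p = 0.0525), or without P7 cKO library 69 (0.55), P7 WT library 1 (0.70), P21 cKO library 59 (0.69) or 64 (0.66), or P21 WT library 3 (0.64) or 57 (0.67). P7 cKO library 69 had the lowest Slc25a36 level of its group, at 11.9 TPM, beside 17.5 and 16.4 TPM in the other 2.

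Genes of the carnitine shuttle, its enzymes and the transporter Slc22a5, were read beside Slc25a20. Of 6 tested, 1 was called lower in P21 cKO hearts, against 1.77% of all genes. It was Cpt2, which rebuilds acyl-CoA inside the membrane (log2 -0.47, limma adjusted p = 0.0054, -0.73 scaled). Cpt1b, the muscle form of the outer-membrane step, was not called (0.18, limma adjusted p = 0.0687). After scaling 2 of the 6 were lower (against 5.33% of all genes), with Crat (-0.37) the other. From P1 to P7 in WT hearts 4 of the 6 were called higher (against 13.8% of all genes), among them Cpt2 (0.92), Crat (0.39) and Cpt1b (0.45). From P7 to P21, 4 were called lower (against 64.4% of all genes), among them Cpt1b (-0.89), Crat (-0.50, 0.07 scaled) and Cpt1a (-1.63). After scaling 2 were higher and 3 lower between P7 and P21, against 27% and 27.4% of all genes. Of 4 shuttle enzymes that partner the malate-aspartate carriers, 2 were called higher at P21 than at P7 in WT hearts (against 8.1% of all genes). They were the aminotransferases Got1 (0.65) and Got2 (0.18). In P21 cKO hearts 0 of these 4 were called, and after scaling 2 were lower (against 5.33% of all genes), Got2 (-0.41) and Mdh2 (-0.38). Of 15 ATP synthase genes, whose product uses the phosphate that Slc25a3 brings in, 0 were called in P21 cKO hearts, and 5 were lower there after scaling (against 5.33% of all genes). At P21 against P7 in WT hearts 3 were lower (against 64.4% of all genes), while 13 were higher after scaling (against 27%).

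Promoter windows matched 36 of the 47 members, with 46 windows. CACGTG, searched on both strands, was in 8 of the 46 (17.4%) and in 6.02% of all 32851 windows of 250 bases. CCAAT, on both strands, was in 21 (45.7%) and in 33.8% of all windows. The site of NRF1, GCGCA with any base and then GCGC, was in 2 (4.35%), those of Slc25a3 and Slc25a31, and in 3.74% of all windows. TNAAGGTCA, the site of the oestrogen-related receptors, was in 0 of the 46 and in 1.14% of all windows. The windows of 1 gene can overlap each other, and a match describes letters in a window only.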

How the data were processed

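The authors deposited 1 table of TPM values (an abundance scaled to transcript length and to the library total) for hearts of wild-type and PDK1 cKO mice, in which each library sums to the same total. TopHat2 2.0.14, Cufflinks 2.2.1 and the mm10 build are named in the submitters' processing notes. The tool that made the TPM, the annotation and the strand setting are not given in the sources used here. TPM keep no read depth, so no counting error could be given, and 2 columns that match no sample of the series were not used.

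Levels were analysed as log2(TPM + 1) with limma 3.58.1 in R 4.3.3 (linear fit, empirical Bayes with trend) over the 14812 genes that reached 1 TPM in 3 or more of the 18 libraries. The model held the 5 groups and the style of the library title (letter code or plain number), the only trace of batches in the labels. Both P7 WT and P21 WT hold both styles, P1 WT only letter codes and the cKO groups only plain numbers. At P21 the letter-code titles are also those that hold B6, so title style and B6 cannot be told apart there. Calls were made at a Benjamini-Hochberg adjusted p under 0.05 over all genes. P21 library 63, whose title and genotype label differ, was left out of the fit. Sums and shares of the family were compared by exact two-sided permutation tests over libraries, 12 in all.

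The alternatives were median-ratio scaling (reference: geometric mean of 16318 genes above 0 in every library), TPM rescaled after removal of 49 mitochondrially encoded and globin genes, 0.1 as the pseudocount, a floor of 5 TPM or none, no title style term, libraries of 1 title style alone, the replicate number as a block, and each library left out in turn. Those run on family sums and shares were chosen after seeing the data. Every member could be named. Values per library were given for 10 carriers whatever they did, and otherwise for the up to 6 members of each direction with the smallest p. A lack of overlap in members picked by their p therefore adds no support beyond the test. The share of all genes whose groups did not overlap was not computed. Values of Slc25a22 and Slc25a33 outside that rule were chosen after their values were seen. The lists of partner genes were the carnitine shuttle, malate-aspartate shuttle, ATP synthase, carrier import, pyruvate carrier and outer membrane channels, iron-sulfur and heme synthesis, and carrier-fold genes with other names. Marker lists covered cardiomyocytes, fibroblasts, endothelial cells, macrophages, red cells, skeletal muscle and brown fat. The members and all lists were chosen with earlier results of these data known. The fit was tested on simulated data. Promoters came from RefSeq tables and gene positions from GENCODE, both of mouse GRCm38. Near-identical copies were found with blastn 2.17.0.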

Additional observations from a re-analysis of the deposited data

Results flagged for a closer look

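In P7 WT library 72, Slc25a53 was at 3.17 TPM, far above the other 4 libraries of its group, which lay between 1.94 and 2.2 TPM. It was the only such library in 78 gene-by-group sets of 4 or 5 libraries, and chance alone would set apart about 5% of them.

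The cKO effect on Slc25a20 differed between the ages, at -0.53 at P21 and -0.03 at P7, a log2 difference of -0.50 by limma's interaction term. For Slc25a36 the same difference was 0.70. The tests and the settings in which each was lost stand with the comparison of the effects above.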

How the results depend on the processing

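At P7, 0 members were called higher or lower in cKO hearts in every alternative. Counts of called members otherwise moved as follows. Members higher in P21 cKO hearts numbered 4, and 1 after median-ratio scaling, 2 without the filter and 1 within 1 title style. Those lower numbered 2, and 3 after scaling, 1 without the filter and 1 within 1 title style. Members lower at P7 than at P1 numbered 9, and 7 after scaling and 5 within 1 title style. At P21 against P7, 8 higher members became 18 after scaling and 4 within 1 title style, and 24 lower ones became 9 after scaling. For the difference of the cKO effects, 1 higher became 0 after scaling, without the filter and within 1 title style and 3 with a pseudocount of 0.1, and 1 lower became 3 after scaling and 0 within 1 title style.

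Leaving out 1 library at a time gave 0 calls at P7, 1 to 8 higher and 1 to 2 lower in P21 cKO hearts, 5 to 7 higher and 6 to 10 lower at P7 against P1, 7 to 8 higher and 22 to 25 lower at P21 against P7, and 0 to 3 higher and 0 to 1 lower for the difference of effects. Direction reversed with scaling for 10 members at P21 against P7: Slc25a39 (0.10), Slc25a46 (0.14), Slc25a37 (0.11), Slc25a42 (0.11), Slc25a16 (0.09), Slc25a36 (0.10), Slc25a45 (0.04), Slc25a44 (0.06), Slc25a28 (0.36) and Slc25a15 (0.25). Of these members only Slc25a15, Slc25a28 and Slc25a46 were called higher after scaling. Direction also reversed for the sum without Slc25a3, Slc25a4 and Slc25a5, whose difference was 237 at P21 against P7 and -158 in P21 cKO against P21 WT hearts. The scaling itself sets the median gene to 0, and which of the scales is nearer to RNA per cell was not tested.

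Replicate numbers are shared only among letter-code WT libraries, whose same-numbered pairs correlated at -0.117 to 0.165, so they share only a number. With the replicate block (correlation -0.0112) the counts were 0 and 0, 4 and 2, 6 and 9, 8 and 24, and 1 and 1 (higher and lower, in the order above). Within 1 title style as few as 2 libraries stood in a WT group.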

Other observations

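Other genes of the carrier fold and its partners also changed with age. Of 4 tested carrier-fold genes with other names, 3 were called higher at P7 than at P1 in WT hearts, against 13.8% of all genes. They were Ucp3 (log2 2.93, limma adjusted p = 0.000382) and Ucp2 (1.20), both uncoupling proteins, and Mtch1 (0.16). Mtch2, an outer membrane insertase, was called lower (-0.24), against 14.7% of all genes. After scaling Ucp3 and Ucp2 were still called higher (against 14.8% of all genes), and Mtch1 (0.16) and Mtch2 (-0.24) were not called. Between P7 and P21, Mtch1 (-0.99, -0.42 scaled) and Ucp2 (-1.06, -0.49 and not called after scaling) were called lower, against 64.4% of all genes. In P21 cKO hearts 0 of the 4 were called, with Ucp2 at -0.59 (limma adjusted p = 0.0602, and -0.85 with adjusted p = 0.0466 after scaling). The list of pyruvate carrier subunits and outer membrane channels held 5 tested genes. At P21 against P7 in WT hearts, 2 were called higher and 2 lower, against 8.1% and 64.4% of all genes. After scaling 4 were higher and 0 lower, against 27% and 27.4%. The 2 higher on TPM were the pyruvate carrier subunits Mpc1 (0.69, 1.26 scaled) and Mpc2 (0.27, 0.84 scaled). The channel Vdac2 was among the lower ones (-0.55, 0.02 scaled). In P21 cKO against P21 WT hearts, only Vdac2 of the 5 was called on TPM (0.30, limma adjusted p = 0.00259, 0.04 scaled). It was higher there, as were 19.5% of all genes.

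Of 10 genes that import carrier proteins, 7 were called lower at P21 than at P7 in WT hearts, against 64.4% of all genes. After scaling 0 were lower and 2 higher, against 27.4% and 27% of all genes. Timm10, a chaperone of the space between the membranes, was the only 1 of them called on TPM in P21 cKO hearts (log2 0.58, limma adjusted p = 0.0107, 0.32 and not called after scaling). In that comparison 19.5% of all genes were called higher. After scaling 3 others were called lower there (against 5.33% of all genes), Timm22 (-0.74), Timm8b (-0.40) and Timm29 (-0.28). Of 10 genes of iron-sulfur and heme synthesis, 2 were called higher and 4 lower at P21 than at P7 in WT hearts, against 8.1% and 64.4% of all genes. After scaling these counts were 9 and 0, against 27% and 27.4% of all genes. Cpox, an enzyme of heme synthesis, was called higher in P21 cKO hearts (0.55, limma adjusted p = 0.0126, 0.31 and not called after scaling). After scaling 3 of the 10 were called lower there (against 5.33% of all genes), among them Alas1 (-0.47) and Nfs1 (-0.30).

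Of 6 red cell markers 0 were called in P21 cKO hearts, with a summed level of 10700 to 20900 TPM in P21 cKO and 6230 to 16200 TPM in P21 WT hearts. Of 5 skeletal muscle markers 2 were called lower (against 1.77% of all genes), and the median change of the 5 was 0.07. Tnni2, the fast skeletal troponin I, averaged 1.38 TPM in P21 cKO and 7.77 TPM in P21 WT hearts (log2 -1.85, limma adjusted p = 9.67e-05), and Ckm, the muscle creatine kinase, changed by -0.26 (limma adjusted p = 0.0427). Acta1 (247 TPM in P21 cKO and 138 TPM in P21 WT hearts), Tnnt3 (1.15 and 0.552 TPM) and Mylpf (1.74 and 1.49 TPM) had higher means in cKO hearts and were not called.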
